A study of Mus musculus with 6 samples.

Results

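Sox4 encodes a SOX transcription factor of the SoxC group, and this account follows its 5 probe sets across the arrays of an AE9a leukemia study. The members were all probe sets of the deposited value table with Sox4 as their single gene symbol, 5 of 28821 probe sets, and Sox4 is 1 of 13146 genes with such a probe set. The gene was chosen on its measured difference between leukemia and wild-type, so its own values are given as a description, with no test.

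The leukemia samples were Lin-/Sca1-/cKit+ cells, sorted as negative for lineage markers and Sca1 and positive for the receptor Kit, from the spleens of wild-type MF1 mice that had been lethally irradiated and transplanted with hematopoietic progenitors transduced with AE9a, a truncated form of the AML1-ETO fusion protein (3 samples, from mice numbered 1 to 3). The wild-type samples were Lin-/Sca1-/cKit+ cells from the bone marrow of wild-type MF1 mice (3 samples), so tissue and transplantation differed together with the leukemia and cannot be told apart from it. All mice were 12 to 16 weeks old. The labels do not say whether animals were pooled. Each sample was measured on 1 Affymetrix Mouse430_2 array with 200 ng of RNA as input. Precision is limited by the number of arrays, 6 in all, and the p-values speak only to the spread among these 6.

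SOX proteins bind DNA through an HMG box, which bends the helix, and SoxC members activate transcription through a domain at their C-terminal end. In mice Sox4 is needed for B cell development past the pro-B stage, and retroviral insertions near Sox4 occur in mouse leukemias. The myeloid transcription factor C/EBPalpha is known as a repressor of Sox4 in mouse blood progenitors. Sox4 shares the SoxC group with Sox11 and Sox12.

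The promoter of Sox4 is shown because all of the gene's probe sets had lower means in leukemia, beside that of Sox12, its SoxC relative that was measured well above the dim range. Each run covers 250 bases before to 50 bases after the transcription start, from RefSeq on build GRCm38.p6, and the promoter table held an entry for both. The Sox4 window is chr13:28953650-28953949 on the minus strand and the Sox12 window chr2:152397997-152398296 on the minus strand. Capitals mark the CCAAT box on either strand (CCAAT or ATTGG).
Sox4: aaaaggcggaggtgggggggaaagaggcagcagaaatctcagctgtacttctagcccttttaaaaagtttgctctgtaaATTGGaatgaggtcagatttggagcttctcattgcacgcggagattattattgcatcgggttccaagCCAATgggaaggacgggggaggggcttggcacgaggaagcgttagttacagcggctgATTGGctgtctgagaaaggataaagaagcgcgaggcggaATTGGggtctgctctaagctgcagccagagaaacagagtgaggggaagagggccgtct
Sox12: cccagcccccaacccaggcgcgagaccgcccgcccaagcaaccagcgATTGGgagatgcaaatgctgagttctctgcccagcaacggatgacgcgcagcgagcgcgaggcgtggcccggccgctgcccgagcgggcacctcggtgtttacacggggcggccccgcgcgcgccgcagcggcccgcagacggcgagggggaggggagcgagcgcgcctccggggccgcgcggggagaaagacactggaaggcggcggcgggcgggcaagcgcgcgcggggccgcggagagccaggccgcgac
The Sox4 window held 4 CCAAT boxes, starting at -171, -104, -47 and -8 from the transcription start, and the Sox12 window held 1, at -203. Of the 32851 promoter windows in the table, 37.4% held at least 1 CCAAT box and 1.06% held at least 4. The RUNX letters TGTGGT or TGCGGT, the C/EBP letters TTGCNNAA and the SOX letters ACAAAG or ACAATG, each searched on both strands, had 0 matches in either window. These occur in 22.4%, 10.8% and 28.6% of all windows. None of the 4 motifs overlapped another here, and a match describes the letters only.

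Sox4 was lower in leukemia on all 5 probe sets, and on 4 of them the groups did not overlap. For scale, 42.1% of the 9715 genes tested differed between the groups (limma, adjusted p under 0.05), with 25.2% of the tested genes lower. These shares count genes that passed the threshold and not groups without overlap. The share of all probe sets without overlap is not given here. Nothing is read from the Sox4 counts against these shares, since Sox4 was chosen on the same contrast. The values below are log2 of the deposited intensity. On 1433575_at Sox4 stood at 2.66, 2.80 and 2.59 on leukemia arrays 1, 2 and 3, against 10.80, 11.14 and 11.07 on wild-type arrays 1, 2 and 3. The 3 leukemia arrays were all far below the 3 wild-type arrays, with a gap of 8.0 between the nearest ones. The means were 2.68 ± 0.11 in leukemia and 11.01 ± 0.18 in wild-type (SD, n = 3 each), a difference of -8.32 ± 0.12 (SE).

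On 1419155_a_at, the probe set with the highest mean log2 value, Sox4 stood at 5.09, 4.98 and 5.32 on the leukemia arrays, against 9.07, 9.37 and 9.06 on the wild-type arrays. The groups were apart by 3.74 at the nearest arrays, and the difference of the means was -4.03 ± 0.14 (SE, 5.13 ± 0.17 in leukemia and 9.17 ± 0.17 in wild-type, SD, n = 3 each). On 1419156_at Sox4 stood at 3.96, 4.16 and 3.24 on the leukemia arrays, against 8.55, 8.84 and 8.29 on the wild-type arrays. Leukemia replicate 3 was the lowest there, and the difference of the means was -4.78 ± 0.32 (SE).

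On 1449370_at Sox4 stood at 4.14, 3.93 and 4.97 on the leukemia arrays, against 6.81, 6.94 and 6.71 on the wild-type arrays. Leukemia replicate 3 was the highest leukemia array on this probe set, the reverse of its place on 1419156_at, and the difference of the means was -2.47 ± 0.32 (SE). On 1419157_at Sox4 stood at 3.53, 3.28 and 2.77 on the leukemia arrays, against 4.15, 3.64 and 3.38 on the wild-type arrays. Here the groups overlapped, and the difference of -0.53 ± 0.32 (SE) was close to the spread between replicates (SD 0.39 in leukemia and 0.39 in wild-type).

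**Figure D1:**
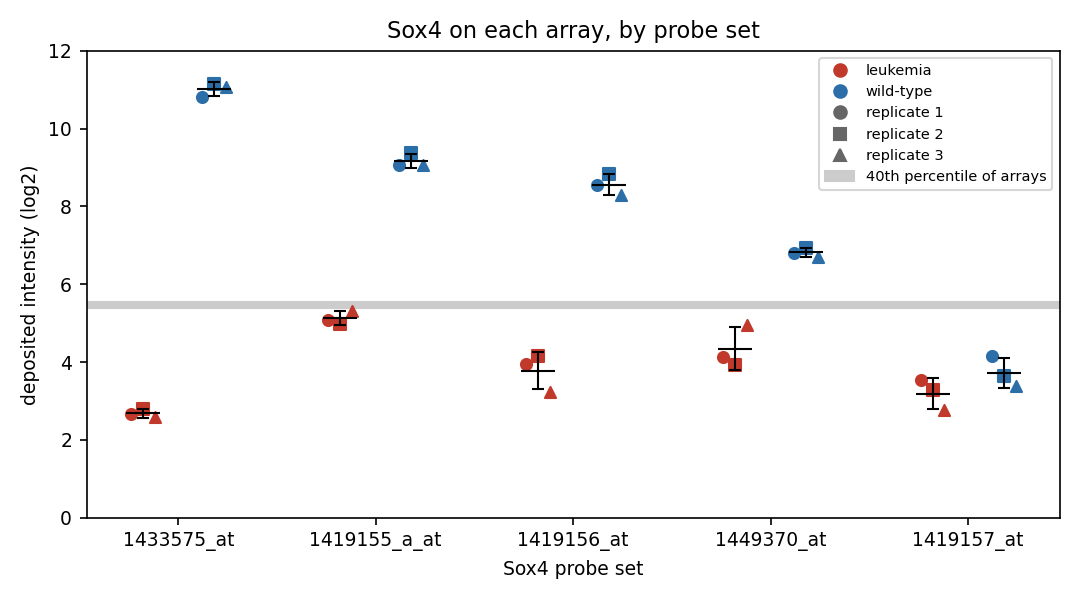
Log2 intensity of Sox4 (vertical axis) on each of its 5 probe sets (horizontal axis), with leukemia arrays in red to the left of wild-type arrays in blue. Marker shapes give the replicate, black bars the mean ± SD of 3 arrays, and the grey band the range of the arrays' 40th percentiles. On 4 probe sets the wild-type arrays lie above the band and the leukemia arrays below it, while on 1419157_at all 6 arrays lie below it.

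Every leukemia array was in the dim range for Sox4. A probe set was taken as dim on an array where its value was under that array's 40th percentile, since no detection calls were used. Of the 5 probe sets, 4 reached that percentile on at least 3 arrays and passed the filter on low values, each through its 3 wild-type arrays and 0 leukemia arrays. The fifth, 1419157_at, reached it on 0 arrays. On 1433575_at Sox4 lay at the 2.52, 3.82 and 1.80 percentile of the leukemia arrays, against the 95.7, 96.9 and 96.6 percentile of the wild-type arrays. On 1419155_a_at it lay at the 35.9, 34.1 and 38.8 percentile of the leukemia arrays, against the 83.8, 86.7 and 83.2 percentile of the wild-type arrays. A percentile reflects how a probe set responds as well as the amount of RNA.

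Because the leukemia values lay so low, the size of the Sox4 difference was given a second time with values under the 40th percentile set to it, an alternative chosen after seeing the data. Sox4 was then at least 48.3-fold lower in leukemia on 1433575_at (difference -5.59), at least 13.5-fold lower on 1419155_a_at (-3.75), at least 8.88-fold lower on 1419156_at (-3.15) and at least 2.65-fold lower on 1449370_at (-1.41). Both groups of 1419157_at were dim, so it is given no fold. With 16 added before the log, the differences were -6.53 on 1433575_at, -3.53 on 1419155_a_at, -3.71 on 1419156_at and -1.81 on 1449370_at. The order of 1419155_a_at and 1419156_at therefore turned round when values were floored. In these bulk samples, fewer cells that express a gene and less of its RNA per cell cannot be told apart.

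**Figure D2:**
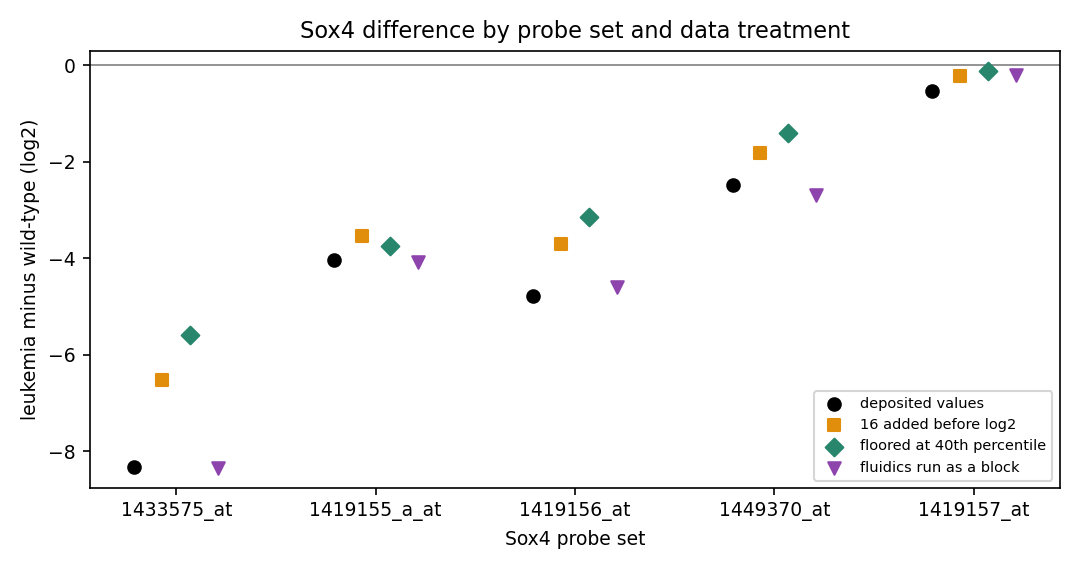
Log2 difference of Sox4 between leukemia and wild-type, leukemia minus wild-type (vertical axis), for each probe set (horizontal axis) under 4 treatments of the data. Black circles are the deposited values, orange squares have 16 added before the log, green diamonds have values under the 40th percentile set to it, and purple triangles have the fluidics run as a block. The deposited values run from -8.32 on 1433575_at to -0.53 on 1419157_at, and all points lie below 0.

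The probe sets of Sox4 disagreed on the size of the difference more than those of any other gene with exactly 5. Genes with other numbers of probe sets were not compared, and the 3 of Mycn ran from -3.66 to 5.88. Their differences spanned 7.79 log2 units, from -8.32 to -0.53. Among the 288 other genes with 5 named probe sets the median span was 0.93, and 0 had a span as wide or wider. With dim values floored the span was 5.48 for Sox4 and the median 0.82 for the others, again with 0 as wide. Only 2 of the 288 had a probe set at or below -4, Mef2c (span 4.06, from -6.40 to -2.34), a MADS-box transcription factor, and Satb1 (span 4.99, from -4.87 to 0.11), a chromatin organizer of lymphoid cells. These spans are descriptions, since Sox4 was known beforehand to be far lower.

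The probe sets did not share a single design record. Per the platform annotation, 4 of the 5 came from 1 source sequence record and the other, 1433575_at, from a different one. The 4 with a common record themselves ran from -4.78 to -0.53. Which part of the transcript each probe set covers was not analysed here.

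The value that stood for Sox4 as a gene depended on the choice of probe set. The mean of the 5 probe sets gave -4.03 and the probe set with the highest linear mean, 1433575_at, gave -8.32. On 1419155_a_at the SD of Sox4 was 0.17 in leukemia, below the median of 0.22 over tested genes there, and 0.17 in wild-type, above the median of 0.11, with 73.2% of genes having a smaller SD in wild-type. The leukemia SD was larger on 1419156_at (0.48) and 1449370_at (0.55).

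The leukemia arrays gave no common order of Sox4. Leukemia replicate 3 was the highest of the leukemia arrays on 1419155_a_at and 1449370_at and the lowest on the other 3 probe sets. In wild-type, replicate 2 was the highest on 4 probe sets and replicate 1 on 1419157_at. Leukemia replicate 1 stood apart from the others over the tested genes (array weight 0.191, against 0.831 to 2.82 on the other arrays). Arrays that share a hybridization entry are taken here as 1 fluidics run. By these entries leukemia replicate 1 shared a run with the wild-type arrays, while the other leukemia arrays did not. Within that run Sox4 differed by -8.35 on 1433575_at, -4.07 on 1419155_a_at, -4.60 on 1419156_at, -2.68 on 1449370_at and -0.19 on 1419157_at, each from leukemia replicate 1 alone. Without that array the differences were -8.31, -4.02, -4.87, -2.37 and -0.70 on the same probe sets.

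Among the control probe sets, the 18S signal and the Gapdh measure of RNA quality did not overlap between the groups, while the Actb measure did. The 5' control probe set of 18S ribosomal RNA stood at 12.35, 11.25 and 11.14 log2 on the leukemia arrays, against 9.41, 8.18 and 7.77 on the wild-type arrays (difference 3.13, exact permutation p = 0.1, two-sided, the smallest that 3 against 3 allows). For Gapdh the 3' probe set minus the 5' one was 0.13 ± 0.16 in leukemia and -0.10 ± 0.04 in wild-type (SD, n = 3 each, exact permutation p = 0.1), and for Actb it was 0.45 ± 0.22 in leukemia and 0.42 ± 0.09 in wild-type (exact permutation p = 0.9). Their part in the Sox4 difference and in the gene lists was not tested.

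Sox6 was the tested SOX gene that moved the other way. It encodes a SoxD factor with a role in red cell maturation in mice, and it was higher in leukemia on all 4 of its probe sets, by 2.08 to 2.46. On its tested probe set Sox6 stood at 7.18, 9.02 and 7.30 on the leukemia arrays, against 5.81, 5.87 and 5.57 on the wild-type arrays. Leukemia replicate 2 was well above the other leukemia arrays, but no leukemia array reached down to wild-type. The difference was 2.08 ± 0.47 (SE, limma adjusted p = 0.0124 over all genes tested). It was 1.43 with the fluidics run as a block, from leukemia replicate 1 alone. It was 1.49 without leukemia replicate 2 and 1.99 without wild-type replicate 3 (limma adjusted p = 0.0537). Of 6 tested erythroid markers 3 rose and 0 fell, beside 16.9% higher and 25.2% lower over all genes tested. The mean level of these markers was 9.36 to 9.98 on the leukemia arrays, against 7.81 to 8.41 on the wild-type arrays. Their part in the Sox6 difference was not tested.

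The SoxC relatives of Sox4 gave no such difference. On its tested probe set Sox12 stood at 7.78, 7.17 and 8.29 on the leukemia arrays, against 7.77, 7.69 and 7.94 on the wild-type arrays. The groups overlapped, and the difference of -0.06 ± 0.28 (SE, limma adjusted p = 0.881) turned positive on centring of the arrays (0.02) and without leukemia replicate 2 (0.23) or wild-type replicate 3 (0.01). Sox11 was dim on all 6 arrays with both of its probe sets. Of 19 SOX genes other than Sox4, 11 had a named probe set and 5 passed the filter, of which 1 rose (Sox6) and 0 fell (limma, adjusted p under 0.05). With no filter 2 of these SOX genes rose, and without wild-type replicate 3 the number was 0. Over all 9715 genes tested 42.1% changed, 16.9% higher and 25.2% lower. Whether Sox4 differed from Sox12 was not tested, since Sox4 was chosen for its difference.

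**Figure D3:**
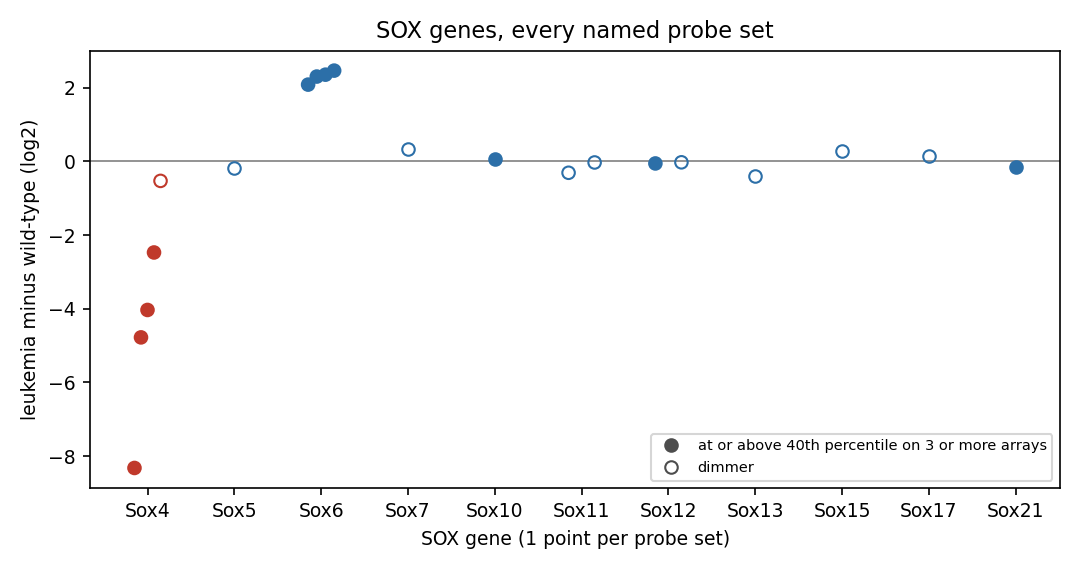
Difference between leukemia and wild-type on the log2 scale (vertical axis) for each named probe set of the SOX genes other than Sry (horizontal axis), 1 point per probe set. Filled points reached the 40th percentile on at least 3 arrays and open points did not. Sox4, in red, spans -8.32 to -0.53, the 4 probe sets of Sox6 lie between 2.08 and 2.46, and the remaining points lie between -0.40 and 0.33.

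Factors placed upstream of Sox4 included several that fell with it. Cebpa, the gene of C/EBPalpha, stood at 4.34, 4.96 and 4.11 on the leukemia arrays, against 9.60, 9.95 and 10.03 on the wild-type arrays (difference -5.39 ± 0.25 SE, limma adjusted p = 1.26e-05). Hoxa9, a homeobox gene of early progenitors, stood at 3.66, 3.29 and 3.64 on the leukemia arrays, against 9.27, 9.78 and 9.65 on the wild-type arrays (difference -6.04 ± 0.20 SE, limma adjusted p = 5.64e-06). The other, untested probe set of Hoxa9 had a difference of -1.08. All leukemia values of both genes lay below the 40th percentile, as those of Sox4 did.

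Meis1, whose protein binds DNA together with HOX proteins, fell by 4.64 (limma adjusted p = 9.28e-06), and its other, untested probe set had a difference of -1.33. Of 12 tested genes of this list of 14, 2 rose and 5 fell, beside 16.9% higher and 25.2% lower over all genes tested. The median difference was -0.36, against -0.09 over all tested genes. The risen ones were Runx1, which encodes the mouse AML1 protein (1.71), and Tgfbr2, a TGF-beta receptor (0.44), and 0 of the list rose without leukemia replicate 3, wild-type replicate 2 or wild-type replicate 3. Runx1 was at 0.72 with the fluidics run as a block, from leukemia replicate 1 alone, and Tgfbr2 did not pass with the replicate number as a block (limma adjusted p = 0.0630). Mecom was dim and had a difference of 0.06. Cebpb, Cebpa's relative, and the methyltransferase gene Kmt2a were the other members that fell.

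The tested genes of Sox4 protein partners showed small differences, while the gene of a chain of the linked IL-5 receptor rose. Sdcbp encodes syntenin, which links the IL-5 receptor to SOX4, and it stood at 11.76, 11.50 and 11.82 on the leukemia arrays, against 11.72, 11.76 and 11.78 on the wild-type arrays (difference -0.06 ± 0.09 SE, limma adjusted p = 0.624). Of 5 tested genes in the list of partners and the IL-5 receptor link, 1 rose and 3 fell, with a median of -0.26. Over all genes tested 16.9% were higher and 25.2% lower. The gene that rose was Csf2rb, the beta chain that the IL-5 receptor shares with other receptors (2.15 ± 0.23 SE, limma adjusted p = 4.51e-04). It is in the list for the receptor link and not as a partner of the Sox4 protein. Spi1, which encodes the myeloid factor PU.1, fell by 0.64, Creb1, a cAMP response factor, fell by 0.38 and Ctnnb1, the gene of beta-catenin, fell by 0.26. None of these 3 falls passed on centring of the arrays, with the fluidics run as a block, without wild-type replicate 2 or without wild-type replicate 3, and Creb1 was at 0.21 with the mean of its 6 probe sets. Lef1, which encodes a WNT effector, was dim. Tcf7, Trp53 and the IL-5 receptor gene Il5ra had no named probe set here.

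Genes reported as Sox4 targets in other cells moved both ways. Of 6 tested 2 rose and 2 fell, with a median of 0.07, beside 16.9% higher and 25.2% lower over all genes tested. Nrp1, a semaphorin and VEGF co-receptor, fell by 2.72 (limma adjusted p = 2.40e-04). Myb, a transcription factor of blood progenitors, fell to 11.84, 11.87 and 12.17 on the leukemia arrays, against 12.67, 12.67 and 12.66 on the wild-type arrays (difference -0.71 ± 0.09 SE, limma adjusted p = 9.29e-04). Its other 2 probe sets also had lower means in leukemia (differences of -1.32 and -1.01). Dicer1, the microRNA-processing enzyme, rose by 0.55 and the corepressor gene Rcor1 by 0.37, and neither passed with the replicate number as a block (limma adjusted p = 0.0533 and 0.0531), the mean of their probe sets, or without wild-type replicate 2 or 3, and the other probe set of Dicer1 was at -0.11. Ezh2, a histone methyltransferase, did not pass (difference -0.14, limma adjusted p = 0.535) and was at 0.03 without leukemia replicate 1.

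**Figure D4:**
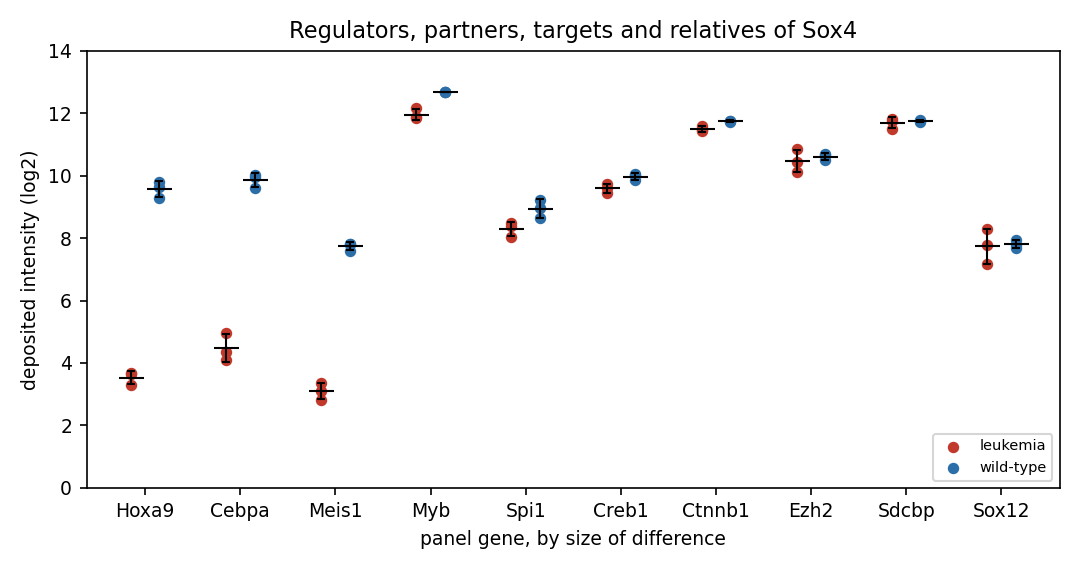
Log2 intensity (vertical axis) of the 10 tested panel genes (horizontal axis, ordered by their difference), with leukemia arrays in red to the left of wild-type arrays in blue and black bars for the mean ± SD of 3 arrays. On the tested probe sets Hoxa9, Cebpa and Meis1 lie far lower in leukemia, by 4.64 to 6.04, while Ezh2, Sdcbp and Sox12 overlap between the groups.

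The signalling pathways that Sox4 is tied to were mixed, and their counts stand beside 16.9% higher and 25.2% lower over all genes tested, with a median of -0.09. TGF-beta induces Sox4 in many cell types, and of 16 tested genes of its signalling 2 rose and 7 fell, with a median of -0.42. Tgfbr3, the co-receptor betaglycan, fell by 4.30 (its leukemia arrays stood at 3.85, 7.46 and 3.75, and the difference was -5.52 without leukemia replicate 2) and Eng, the co-receptor endoglin, fell by 2.18, whereas the activin receptor gene Acvr1b rose by 1.10 and Tgfbr2 by 0.44, a call lost without any 1 of the wild-type arrays (limma adjusted p = 0.0629 to 0.0957). Of 23 tested WNT and beta-catenin genes 3 rose and 7 fell, with a median of -0.15, a share near the 42.1% of all genes tested. The falls numbered 4 without wild-type replicate 2 or 3 and with a 60th percentile filter, and 11 with no filter, while 5 rose without leukemia replicate 1 or 2. Znrf3, which encodes a ligase that removes WNT receptors, fell by 2.75 and the receptor gene Fzd6 fell by 1.81, while the corepressor gene Tle1 rose by 1.60 and Axin2, a common WNT target, by 1.54.

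The pro-B list holds genes of the stage at which Sox4 is needed in mice. Of 9 tested 0 rose and 4 fell, with a median of -0.98, beside 16.9% higher and 25.2% lower over all genes tested. Counted in either direction, the share was near the 42.1% of all genes tested. Dntt, the gene of the enzyme TdT, fell by 5.52 (limma adjusted p = 1.09e-04) and Il7r, the IL-7 receptor gene, fell by 3.13 (limma adjusted p = 2.84e-04). Without the filter on dim genes 7 fell, with a 60th percentile filter 2 fell, and without leukemia replicate 2 there was 1 that rose. Of 8 B cell markers only Cd79b was tested, at a difference of -0.98 that did not pass (limma adjusted p = 0.150), and Cd22, Fcrla and Ms4a1 were dim.

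Transcription factors of stem and progenitor cells moved both ways. Of 19 tested 4 rose and 9 fell, with a median of -0.76, beside 16.9% higher and 25.2% lower over all genes tested. Without wild-type replicate 1 or 2 there were 2 that rose. Beside Hoxa9, Gfi1, a repressor needed for neutrophil development, fell by 5.04 (limma adjusted p = 2.26e-05). Id1, an inhibitor of bHLH factors, rose by 2.23, a call lost without any 1 of the wild-type arrays (limma adjusted p = 0.0573 to 0.0627), and Mycn by 5.88, although another of its probe sets had a difference of -3.66. With the fluidics run as a block 14 of the list fell, while over all genes the falls numbered 3104 under that block and 2452 without it.

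Markers of other cell types moved with the groups as well, and their counts stand beside 16.9% higher and 25.2% lower over all genes tested. All 8 granulocyte-monocyte progenitor markers fell (median -6.93, mean level 4.54 to 5.03 on the leukemia arrays, against 11.40 to 11.88 on the wild-type arrays). All 4 tested megakaryocyte markers fell, with a mean level of 5.31 to 5.74 on the leukemia arrays, against 8.01 to 8.24 on the wild-type arrays. Of 7 mast cell and basophil markers 4 rose and 1 fell, with a mean level of 9.57 to 10.60 on the leukemia arrays, against 8.72 to 8.89 on the wild-type arrays. Of 2 tested endothelial and stromal markers both fell, and 1 of 1 tested T and NK cell markers fell (Nkg7). Among the sort markers Kit fell by 0.76, although its other probe set had a difference of 0.72. Ptprc, the gene of CD45, fell by 7.64, with -0.18 on a dim second probe set. The part of these cell types in the Sox4 difference was not tested.

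The genes whose pattern was most like that of Sox4 differed with the probe set. Likeness was the Euclidean distance over the 6 arrays between log2 profiles centred on their own means, which the difference between the groups dominates. For 1419155_a_at the nearest of the other tested genes were the zinc finger gene Repin1 (distance 0.408, difference -3.80), the cytokine gene Il12a (0.412, -4.0), the phospholipase-like Plbd1 (0.441, -3.73), the RAC exchange factor gene Arhgef6 (0.441, -3.90), the receptor kinase gene Grk3 (0.456, -3.86) and the hexokinase gene Hk3 (0.456, -3.96). For 1433575_at they were the granule protease gene Elane (distance 0.939), Ptprc (0.971), the myeloperoxidase gene Mpo (1.26), the chemokine gene Ccl9 (1.42), Ifitm1 (1.48) and Plac8 (1.51). Of the 6 genes nearest to 1419155_a_at, 0 were among the 6 nearest to any of the other probe sets. Since the size of the difference dominates the distance and varied between the probe sets, no conclusion is drawn from this count.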

How the data were processed

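The authors deposited 1 table of intensity values on a linear scale for 6 arrays. RMA is named in the submitters' processing notes, with version and settings not given in the sources used here. The design had assumed log2 values, so log2 of the linear values was taken, with no pseudocount, and the planned limma test was kept. Hybridization entries of the array records were taken to mark fluidics runs (2), a name the sample labels do not give, and the chip lot was 1. With the run as a block each difference came from leukemia replicate 1 against the wild-type arrays. Calls and counts under that block therefore rest on 1 leukemia array.

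The table held 28821 probe sets, of which 23750 had 1 gene symbol, 677 several and 4355 none, and 39 were controls. The RefSeq gene table of GRCm38.p6 matched 23674 of the named ones and changed 0 symbols. For a gene with several probe sets the highest mean log2 value was used. A gene was tested if 3 or more arrays had it at their 40th percentile or above (9715 tested, 3431 dim). A gene dim in 1 group could thus pass through the other group alone, and the size of its difference is then limited by the dim values. The 2 groups were fitted with limma 3.58.1 under R 4.3.3 by lmFit and trended eBayes without covariates. Tests were two-sided with 4 residual degrees of freedom, and p-values were adjusted by Benjamini-Hochberg across these genes (threshold 0.05). A gene "rose" or "fell" where it passed. Where 1 array was left out, the filter asked for 2 arrays. The procedure was tested on simulated data. Single values were compared by exact permutation (scipy 1.17.1), and figures were drawn with matplotlib 3.10.9.

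Sox4 itself, the gene lists (8 of pathways and 8 of cell types), the panel of 15 genes and the alternatives were chosen with earlier results of these data known. Named genes were the Sox4 probe sets, the panel, from each list the 2 largest passing changes per direction with separate groups, and the 6 genes nearest to Sox4. Cell type markers, the neighbours of the second probe set and the genes with wide spans were named beyond that rule, after their values were seen.

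Alternatives covered the log offset, centring, quantile normalization, the filter, the probe set rule, the intensity trend, array weights, a block for replicate number or for fluidics run, and omission of single arrays.

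The replicate numbers did not pair the arrays. Deviations from the group means correlated at -0.07, 0.05 and 0.03 between arrays with the same number. Protein and probe sequences were not used here.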

Additional observations from a re-analysis of the deposited data

Results flagged for a closer look

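The 5' control probe set of 18S ribosomal RNA lies outside the gene comparison and was 3.13 log2 units higher on the leukemia arrays than on the wild-type arrays. The lowest leukemia array stood at 11.14 and the highest wild-type array at 9.41.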

How the results depend on the processing

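Sox4 stayed lower in leukemia on every probe set under each alternative run. On a fixed probe set, or for the mean of the 5, the difference moved by more than 1 SD between replicates only with the treatment of low values. The choice of probe set for the gene moved it too, from -4.03 to -8.32 with the highest linear mean. With 16 added before the log the differences were -6.53 (1433575_at), -3.53 (1419155_a_at), -3.71 (1419156_at), -1.81 (1449370_at) and -3.16 for the mean of the 5 probe sets. With values floored at the 40th percentile, a choice made after seeing the data, they were -5.59, -3.75, -3.15, -1.41 and -2.80 in the same order, and -0.11 on 1419157_at. Leaving out 1 array gave -8.42 to -8.25 on 1433575_at, -4.13 to -3.93 on 1419155_a_at, -4.96 to -4.51 on 1419156_at, -2.78 to -2.27 on 1449370_at, -0.70 to -0.32 on 1419157_at and -4.10 to -3.96 for their mean. The replicate number as a block left the Sox4 differences at their values (-4.03 on 1419155_a_at) and gave 1445 genes higher and 2120 lower, against 1637 and 2452 without it. Leaving out 1 array gave 1109 to 1972 genes higher and 1515 to 2853 lower. The 1109 was without wild-type replicate 2 and the 1515 without wild-type replicate 3. The fluidics run as a block gave 2028 higher and 3104 lower. Single genes near 0 turned their sign. Sdcbp was at 0.021 on centring, 0.0073 with the fluidics run as a block, 0.150 with the mean of its probe sets, and -0.12 to 0.039 when 1 array was left out. Sox12 was at 0.0214 on centring and -0.33 to 0.23 when 1 array was left out. Creb1 was at 0.21 with the mean of its probe sets. Ezh2 was at -0.33 to 0.033 when 1 array was left out, and at -0.50 with the fluidics run as a block, from leukemia replicate 1 alone. The cause was not tested. No probe set carries a detection call here, so values in the dim range limit every fold given for Sox4.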
